A study of Mus musculus with 12 samples.

Results

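The 45 genes described here encode the steps by which a cell takes up glucose, breaks it down to pyruvate and lactate, burns pyruvate in the TCA cycle, stores glucose as glycogen, or diverts it into the pentose phosphate pathway. They were chosen by pathway step, and each was found by its symbol among the 21556 genes counted. The cells were primary fibroblasts from the abdominal skin of WT (C57BL/6) mice and of Nox4 KO mice of the strain B6.129-Nox4tm1Kkr/J, a germline knockout of the gene of the hydrogen peroxide-forming enzyme NOX4. Both lines went back to littermates of heterozygous crosses and were then bred apart, and the cells had been through several passages in culture. The age of the mice that gave the cells is not given in the sources used here. All cells were starved of serum for 24 h, and the stimulated ones then received TGF-β2 at 10 ng/ml for 24 h. There were 3 libraries in each of 4 groups, namely WT control, WT with TGF-β2, Nox4 KO control and Nox4 KO with TGF-β2. The study also measured glycolysis and respiration of such fibroblasts, and the comparisons below ask whether the transcripts of the same pathways differed with TGF-β2 or with Nox4. Nothing in the labels says whether replicates came from separate mice or cultures, so the p-values measure only the spread between these libraries.

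Glycolysis converts glucose to pyruvate, which either becomes lactate in the cytosol or enters mitochondria as acetyl-CoA through pyruvate dehydrogenase. The pyruvate dehydrogenase kinases switch that enzyme off, so their level bears on how pyruvate is divided between both fates. Glycogen is a branched polymer of glucose, built by glycogen synthase and branching enzyme and taken apart by glycogen phosphorylase, while targeting subunits of protein phosphatase 1 bring the phosphatase that favours its synthesis to the particle. TGF-β turns fibroblasts into contractile, matrix-producing myofibroblasts, and their glucose use has been studied as part of that change.

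Levels are given as RPKM, the number of reads per kilobase of merged exons, scaled to the library's counted reads, which allows genes to be compared per length. Over the mean of the 12 libraries, Aldoa (aldolase A) was at 320.0 RPKM, Pkm (pyruvate kinase) at 273 RPKM, Ldha (lactate dehydrogenase A) at 244 RPKM and Mdh2 (mitochondrial malate dehydrogenase) at 237 RPKM, each above more than 99% of all genes. The ranges of these 4 over the libraries overlapped. At the other end, Aldoc (aldolase C) was at 0.207 RPKM and Slc2a3 (glucose transporter GLUT3) at 0.83 RPKM, and both stayed under the limit of a mean of 1 RPKM in any group compared, so 43 of the 45 members were tested for a response to TGF-β2. Within the steps, 1 isoenzyme often held nearly all transcripts: in WT control the share of the summed RPKM was 98.1% ± 0.0486 (SD, n = 3) for Slc2a1 (GLUT1) against Slc2a3, 97.5% ± 0.314 for Ldha against Ldhb, 95.4% ± 1.45 for Eno1 against Eno2 and 95.9% ± 0.466 for the phosphorylase Pygb against Pygl.

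Some of these levels are limited by how reads were kept. Reads of 50 bases that mapped to more than 1 location were discarded before deposit, and several glycolytic genes have processed copies elsewhere in the genome. The share of 50-base stretches of a gene's protein-coding transcripts that also occurs in the transcripts of genes at another locus was 68% for Pgk1 (phosphoglycerate kinase), 58.4% for Gapdh, 49.5% for Eno1 and 41.5% for Pgam1 (phosphoglycerate mutase). Gapdh shared stretches with 222 genes and stood at only 6.64 RPKM, beside 7.34 RPKM for Pgk1 and 9.07 RPKM for Pgam1, against 127 RPKM for Tpi1, the enzyme of the preceding step, with 6.83% shared. Eno1, with more shared stretches than Pgam1, was at 106 RPKM, so a high share did not always go with a low level. The share was 21% for Ldhb, 19% for Gpi1, 18.4% for Pkm and 0 for 24 members. The levels of the genes with many shared stretches are therefore lower bounds, while a change between groups compares the same remaining stretches.

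The libraries held 35118344 to 43796260 counts. Nox4 itself, the check of the genotype labels, was at 1.31 to 2.42 RPKM in WT control, 8.56 to 16.3 RPKM in WT with TGF-β2, 0.636 to 1.4 RPKM in Nox4 KO control and 4.39 to 6.85 RPKM in Nox4 KO with TGF-β2, and a count per gene does not tell the exons from which reads in the knockout came. The genotypes overlapped in control but not after TGF-β2, so this level does not settle the label of each control library. All 9 fibroblast markers examined were at 1 RPKM or more, and 0 of 7 keratinocyte markers were. The fibroblast markers summed to 6640 to 7340 RPKM in WT control and 5460 to 6460 RPKM after TGF-β2. In Nox4 KO these sums were 6730 to 8030 and 5830 to 6680 RPKM. The 5 endothelial markers, of which Kdr alone reached 1 RPKM, summed to 2.53 to 4.29 and 1.68 to 2.45 RPKM in WT. In Nox4 KO they summed to 3.04 to 5.54 and 2.42 to 2.94 RPKM. The part of these lower sums in the results below was not tested. Replicate 2 of WT with TGF-β2 stood apart from its group, with a chi-square per gene of 144 and 178 against the other libraries and 34.5 between those. In each of the 3 other groups replicate 3 stood apart, with 61.9 and 76.2 against 17.3 in WT control, 109 and 82.8 against 32.9 in Nox4 KO control, and 144 and 96.2 against 29.9 in Nox4 KO with TGF-β2. In replicate 2 of WT with TGF-β2, 12 of the 45 members had their highest level of all libraries, and values without it, or counts without each of these libraries in turn, are given where they change. The 6 macrophage markers examined, of which Lyz2, Csf1r, Cd68 and Adgre1 reached 1 RPKM, summed to 11.7 to 107 RPKM with overlapping ranges in the 4 groups. The 6 skeletal muscle markers summed to 41.6 to 103 RPKM in control and 254 to 613 RPKM after TGF-β2, nearly all from Acta1, while Myh4 was at 0 and Ckm, Myod1 and Ttn were under 0.1 RPKM in every library, and their part in the results below was not tested. In such bulk samples, fewer cells of a type and less RNA per cell cannot be told apart.

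In WT fibroblasts single enzymes of each pathway rose or fell with TGF-β2, and most members were not called. Of 43 members tested, 4 rose (background 10.4% of 10743 genes) and 9 fell (background 12.2%), with a median log2 fold change of -0.05 over all 43 and a range from -4.69 to 0.68. Idh3a, Hk2, Mdh2 and Slc16a3 rose. Ppp1r3c, Pygl, Idh1, Ldhb, Pdk1, Pdk4, G6pdx, Pygb and Pfkm fell. Control and stimulated libraries did not overlap in 23 of 43 members, beside 45.2% of all genes tested. Only Ppp1r3c and Pygl changed by 2-fold or more among the members called (background 5.09% lower and 2.62% higher at that fold).

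In Nox4 KO fibroblasts 3 members rose (background 15.1% of 10809 genes) and 10 fell (background 14.9%), with a median log2 fold change of -0.14, a range from -5.65 to 0.86 and no overlap between groups in 25 of 43 members beside 48.5% of all genes. Hk2, Idh3a and Mdh2 rose, and Ppp1r3c, Ldhb, Eno2, Idh1, G6pdx, Pdk4, Pdk1, Pdk2, Pdk3 and Pfkm fell. Of the members called, Ppp1r3c, Ldhb and Eno2 fell by 2-fold or more and none rose by that much (background 4.58% and 2.22%). At an unadjusted p under 0.05 there were 18 members in WT (background 37.7%) and 20 in Nox4 KO (background 43.8%). The members called in both genotypes numbered 10, which is 10 of 13 in WT and 10 of 13 in Nox4 KO, and each of them moved in the same direction in both. The 13 of 43 called in Nox4 KO stood beside 30.0% of all genes called in either direction, and the 13 of 43 in WT beside 22.6%. With upper-quartile scaling the WT split was 2 members higher and 10 lower, beside 994 higher and 1401 lower of all 10743 genes tested. Over all genes in Nox4 KO the split was 1637 higher and 1606 lower, and 1032 and 2122 when scaled by library size alone, where the median of all genes was at -0.10, or 1216 and 1969 with upper-quartile scaling. The same-numbered Nox4 KO libraries with and without TGF-β2 deviated together, and with the replicate block 25 members were called in Nox4 KO, 8 higher and 17 lower, beside 25.2% and 28.8% of all genes in that fit and 54.0% in either direction. The block added Slc2a1, Pfkfb3, Pfkfb4, Slc16a3 and Cs to the higher members and Gpi1, Tpi1, Gbe1, Pygb, Pygl, Pgd and Taldo1 to the lower ones.

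**Figure D1:**
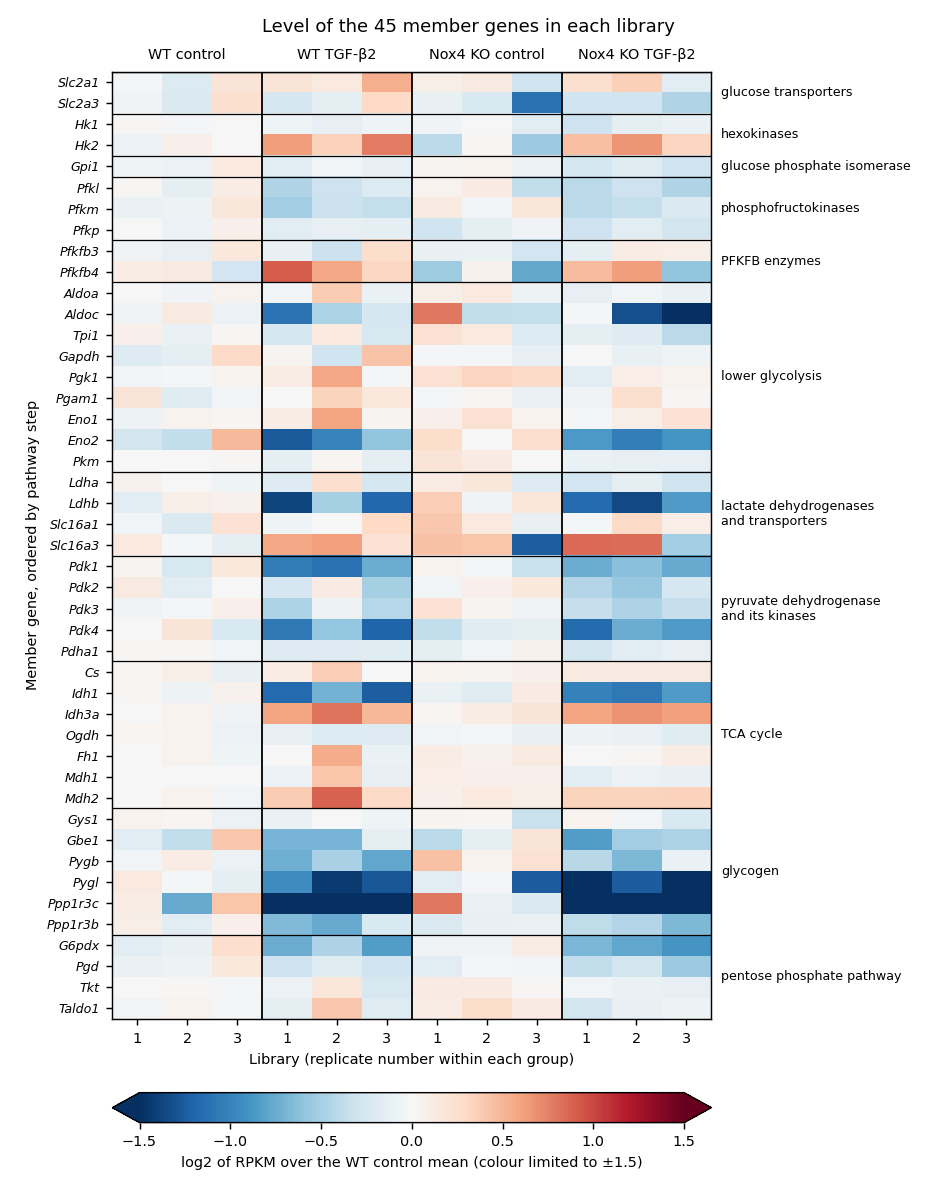
Each row is 1 of the 45 member genes, grouped by pathway step, and each column 1 library; the colour is the log2 ratio of the RPKM to the mean of the 3 WT control libraries, limited to ±1.5. Ppp1r3c, Pygl, Idh1, G6pdx and Ldhb are blue in the stimulated libraries of both genotypes, Hk2, Idh3a and Mdh2 are red, and most rows of lower glycolysis stay pale apart from replicate 2 of WT with TGF-β2.

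**Figure D2:**
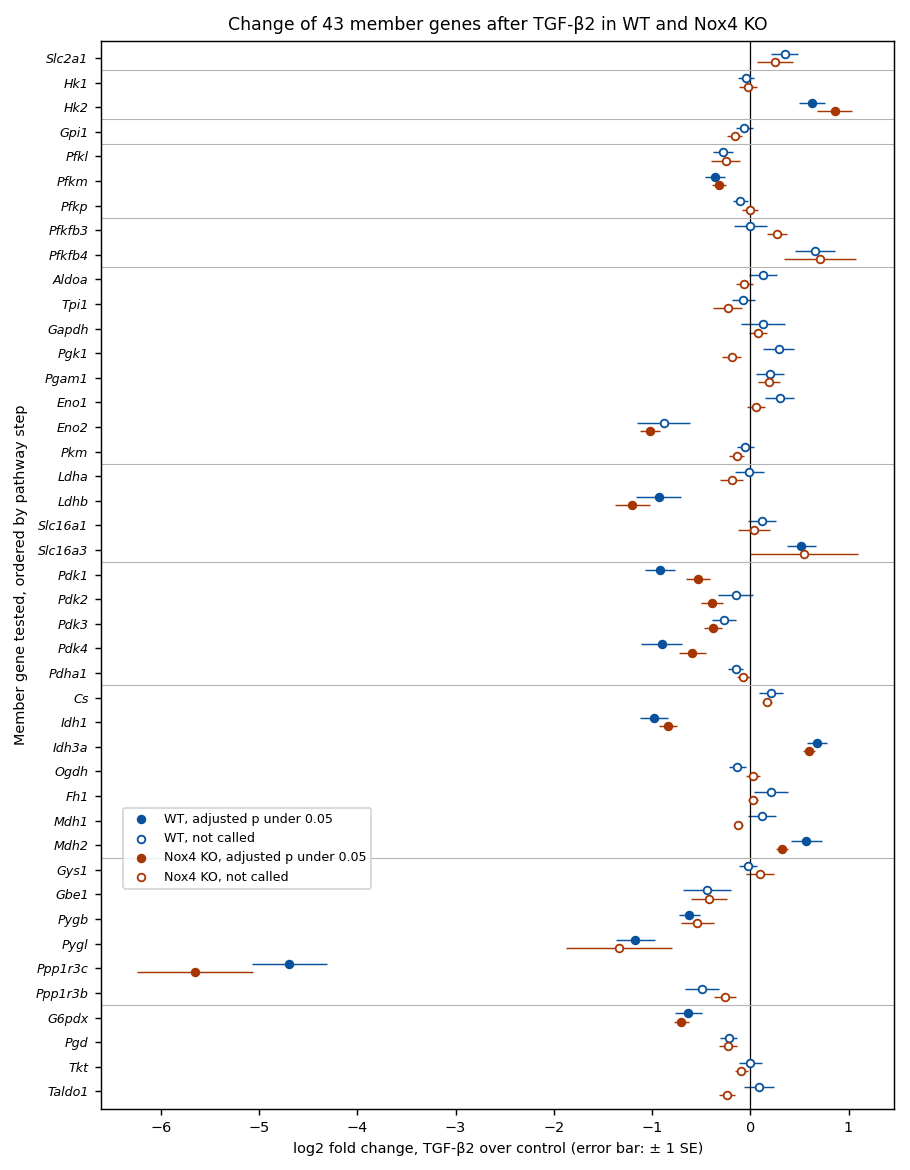
Points are log2 fold changes of TGF-β2 over control for the 43 members tested, with 1 standard error on either side, in blue for WT and in brown for Nox4 KO. Filled points had an adjusted p under 0.05; Ppp1r3c lies at -4.69 and -5.65, and every other member lies between -1.34 and 0.86.

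For 4 members with different outcomes the bases before the RefSeq transcript start (assembly GRCm38.p6) are printed as examples. Hk2 rose and Ppp1r3c fell in both genotypes, Pygl fell in WT, and Ldha, the main lactate dehydrogenase, was not called. Capitals mark ACGTG or its reverse complement CACGT, the core letters bound by hypoxia-inducible factors, which also lie inside the E-box CACGTG. Each sequence runs 5′ to 3′ along the gene and ends at the base before the start.
Hk2, chr6:82774455-82774704, minus strand: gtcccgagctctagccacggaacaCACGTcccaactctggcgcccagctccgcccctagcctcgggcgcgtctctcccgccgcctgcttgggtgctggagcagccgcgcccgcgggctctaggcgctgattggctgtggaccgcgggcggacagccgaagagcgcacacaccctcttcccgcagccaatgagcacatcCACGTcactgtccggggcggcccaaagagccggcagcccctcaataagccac
Ldha, chr7:46845554-46845803, plus strand: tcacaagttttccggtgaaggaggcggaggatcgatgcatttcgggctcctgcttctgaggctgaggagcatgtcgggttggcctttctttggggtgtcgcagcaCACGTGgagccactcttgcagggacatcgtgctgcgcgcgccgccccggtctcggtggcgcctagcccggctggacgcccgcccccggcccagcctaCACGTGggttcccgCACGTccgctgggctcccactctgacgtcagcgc
Pygl, chr12:70227684-70227933, minus strand: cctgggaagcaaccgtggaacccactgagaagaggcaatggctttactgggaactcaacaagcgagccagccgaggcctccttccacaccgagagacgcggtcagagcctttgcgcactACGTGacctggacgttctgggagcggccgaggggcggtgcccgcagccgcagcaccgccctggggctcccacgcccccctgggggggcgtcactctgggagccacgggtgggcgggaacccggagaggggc
Ppp1r3c, chr19:36736605-36736854, minus strand: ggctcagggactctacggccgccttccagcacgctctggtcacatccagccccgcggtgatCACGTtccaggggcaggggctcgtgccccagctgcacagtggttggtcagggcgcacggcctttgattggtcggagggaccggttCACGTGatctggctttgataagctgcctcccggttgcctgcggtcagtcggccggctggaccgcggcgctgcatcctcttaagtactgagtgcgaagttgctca

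A window of 250 bases was found for 42 of the 45 members, taking the RefSeq start nearest the annotated gene start, and none was present for Idh3a, Slc2a3 and Ppp1r3b. ACGTG occurred on either strand in 16 of the 42 windows, or 38.1%, against 16.6% of all 32851 windows of that length. Ldha held 5 matches within 2 E-boxes and a further site, Ppp1r3c held 3, Hk2 held 2 and Pygl held 1. Among the members called after TGF-β2 in either genotype 8 of 15 windows held it, and among the other members 8 of 27. The E-box CACGTG was in 11.9% of the member windows and 6.02% of all, the SMAD letters CAGAC in 26.2% and 42.2%, and the AP-1 letters TGANTCA in 0 of 42 and 6.75%. Genes that rose, fell and were not called thus carried the same letters, and a match is a description of the window only.

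Among the tested genes of glucose entry and trapping, hexokinase 2 was the only one called without the replicate block. Hk2 (chromosome 6, 82725025 to 82774454, minus strand, GRCm38), the inducible enzyme that phosphorylates glucose, stood at 14.1, 15.7 and 15 RPKM in WT control and at 23.1, 19.0 and 25.4 RPKM after TGF-β2. In Nox4 KO its levels were 11.4, 15.1 and 10.2 RPKM in control and 20.4, 23.7 and 18.7 RPKM after stimulation. Stimulated libraries were above control libraries in both genotypes without overlap. The log2 fold change was 0.63 (SE 0.13, adjusted p = 0.0162) in WT and 0.86 (SE 0.18, adjusted p = 0.0171) in Nox4 KO. Hk1, the housekeeping hexokinase, ranged from 25.0 to 31.5 RPKM over all libraries, with a log2 fold change of -0.04 (SE 0.08) in WT and -0.02 (SE 0.09) in Nox4 KO. The share of Hk2 in the RPKM of both hexokinases was 32.5% ± 1.46 in WT control and 43.3% ± 3.17 with TGF-β2 (SD, n = 3, two-sided exact permutation test, p = 0.1), and 29.1% ± 3.09 and 43.2% ± 3.49 in Nox4 KO (p = 0.1), where 0.1 is the smallest p that 3 against 3 libraries allow. Slc2a1, the main glucose transporter here, was at 41.6 to 54.7 RPKM in WT control and 52.9 to 69.8 RPKM after TGF-β2, and its log2 fold change of 0.35 (SE 0.14, adjusted p = 0.129) was not called. The Nox4 KO value was 0.25 (SE 0.18) and was not called either. Only the replicate block called Slc2a1, in WT (0.34, SE 0.09, adjusted p = 0.0419) and in Nox4 KO (0.25, SE 0.04, adjusted p = 0.00713).

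At the phosphofructokinase step 1 of the 3 subunit genes, Pfkm, fell in both genotypes. Pfkm (chromosome 15, 98092589 to 98132451, plus strand), the muscle-type subunit of the enzyme that commits sugar to glycolysis, was at 13.5, 13.7 and 16.3 RPKM in WT control and 10.2, 11.6 and 11.3 RPKM after TGF-β2. The Nox4 KO levels were 15.9, 14.1 and 16.3 RPKM before and 11.0, 11.3 and 12.5 RPKM after stimulation. No stimulated library reached a control library of its genotype, and Pfkm fell by 0.36 (SE 0.10, adjusted p = 0.0375) in WT and fell by 0.32 (SE 0.08, adjusted p = 0.0239) in Nox4 KO on the log2 scale. Without the filter on low levels the WT value was -0.32 (adjusted p = 0.0754). Pfkl, the liver-type subunit, had a value of -0.28 (adjusted p = 0.0909) in WT and -0.25 (adjusted p = 0.237) in Nox4 KO, and the platelet-type Pfkp was within 0.10 of no change. Pfkp shares 748 bp of exon with Pitrm1 on the other strand, and whether counting used the strand is not stated. Pfkfb4, which makes the allosteric activator of phosphofructokinase, had a log2 fold change of 0.66 (SE 0.20, adjusted p = 0.0556) in WT and 0.71 (SE 0.37, adjusted p = 0.19) in Nox4 KO. The replicate block called it in WT (0.65, SE 0.11, adjusted p = 0.00938) and in Nox4 KO (0.67, SE 0.15, adjusted p = 0.0141). DESeq2, edgeR's own filter and the fit without a filter called it in WT as well. Replicate 3 of Nox4 KO was low in both conditions for this gene, at 4.97 RPKM in control and 5.62 RPKM with TGF-β2.

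The main enzymes of lower glycolysis were not called in either genotype, except Tpi1 in Nox4 KO with the replicate block (-0.22, SE 0.06, adjusted p = 0.0235). Aldoa, Tpi1, Gapdh, Pgk1, Pgam1, Eno1 and Pkm had log2 fold changes between -0.07 and 0.30 in WT and between -0.23 and 0.19 in Nox4 KO. Gapdh (chromosome 6, 125161715 to 125166467, minus strand), the glyceraldehyde-3-phosphate dehydrogenase often used as a loading reference, was at 5.82, 6.01 and 8.16 RPKM in WT control and 6.87, 5.41 and 8.97 RPKM after TGF-β2. The Nox4 KO libraries were at 6.58, 6.55 and 6.14 RPKM before and 6.65, 6.18 and 6.39 RPKM after. The groups overlapped in both genotypes, with log2 fold changes of 0.13 (SE 0.22, adjusted p = 0.687) and 0.08 (SE 0.09, adjusted p = 0.507). The WT value was -0.07 without replicate 3 of the stimulated group. In Nox4 KO scaling by library size alone gave -0.0047.

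Eno2, the neuronal-type enolase and a minor transcript here, was the exception in lower glycolysis. Its levels (chromosome 6, 124760053 to 124769673, minus strand) were 3.86, 3.62 and 6.55 RPKM in WT control and 1.95, 2.34 and 3.1 RPKM after TGF-β2. In Nox4 KO they were 5.61, 4.68 and 5.57 RPKM before and 2.58, 2.27 and 2.52 RPKM after. Eno2 fell in Nox4 KO by 1.02 on the log2 scale (SE 0.10, adjusted p = 0.00333). The WT value of -0.88 (SE 0.26, adjusted p = 0.0557) was not called although the libraries did not overlap. DESeq2 (adjusted p = 0.0116), the replicate block (adjusted p = 0.00655), upper-quartile scaling (adjusted p = 0.0497) and the fit on all 12 libraries (adjusted p = 0.0112) called it. The share of Eno2 among both enolases went from 4.56% ± 1.45 to 2.13% ± 0.762 in WT and from 4.76% ± 0.719 to 2.31% ± 0.258 in Nox4 KO (SD, n = 3, exact permutation test, p = 0.1 in each), set against an Eno1 level that shared stretches make a lower bound.

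At the lactate step the heart-type subunit fell while the main subunit was not called. Ldhb (chromosome 6, 142490249 to 142507957, minus strand), whose enzyme favours the conversion of lactate back to pyruvate, was at 5.79, 6.85 and 6.75 RPKM in WT control and 2.48, 4.56 and 2.86 RPKM after TGF-β2. The Nox4 KO libraries were at 8.32, 6.23 and 7.36 RPKM in control and 2.87, 2.52 and 3.6 RPKM after stimulation. All stimulated libraries were below all control libraries, and replicate 2 was the highest of the WT stimulated group. Ldhb fell by 0.93 (SE 0.23, adjusted p = 0.0304) in WT and fell by 1.2 (SE 0.18, adjusted p = 0.00699) in Nox4 KO on the log2 scale. Without WT stimulated replicate 2 the WT value was -1.22 (SE 0.14, adjusted p = 0.00424). Ldha ranged from 207 to 304 RPKM over all libraries, with log2 fold changes of -0.01 (SE 0.15) in WT and -0.19 (SE 0.12, adjusted p = 0.279) in Nox4 KO. The share of Ldhb went from 2.49% ± 0.314 to 1.30% ± 0.188 in WT and from 2.76% ± 0.562 to 1.38% ± 0.313 in Nox4 KO (exact permutation test, p = 0.1 in each).

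Slc16a3, the monocarboxylate transporter MCT4 that exports lactate, was at 13.4, 12.0 and 11.0 RPKM in WT control and 18.1, 18.6 and 14.1 RPKM after TGF-β2. Its Nox4 KO levels were 16.4, 16.2 and 5.14 RPKM in control and 21.9, 21.7 and 8.51 RPKM after stimulation. Replicate 3 of Nox4 KO was far below the other replicates in both conditions, and within each replicate number the stimulated library was the higher one. It rose in WT by 0.52 on the log2 scale (SE 0.15, adjusted p = 0.0448), a call lost without WT stimulated replicate 2 (0.46, adjusted p = 0.0724), with upper-quartile scaling and in the fit on all 12 libraries. The Nox4 KO value was 0.55 (SE 0.55, adjusted p = 0.474) and, with the replicate block, 0.60 (SE 0.08, adjusted p = 0.00257). Slc16a1 (MCT1) ranged from 4.44 to 6.83 RPKM and had values of 0.12 and 0.04.

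**Figure D3:**
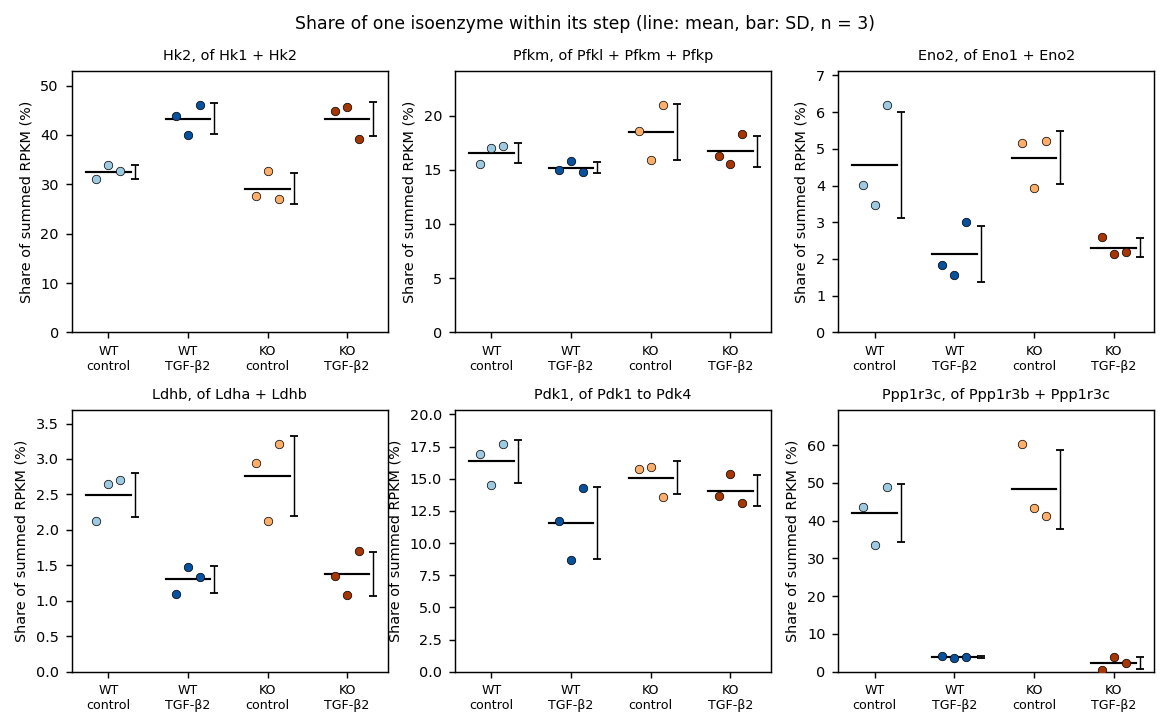
Points are the share of 1 isoenzyme in the summed RPKM of its step in each library, in percent, with the mean as a line and the SD as a bar for the 3 libraries of each group. The shares of Hk2 lie higher, and those of Eno2, Ldhb and Ppp1r3c lower, in the stimulated libraries of both genotypes without overlap, while those of Pfkm overlap.

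All 4 pyruvate dehydrogenase kinases had negative values after TGF-β2 in both genotypes. Pdk1 (chromosome 2, 71873224 to 71903858, plus strand) was at 5.77, 4.74 and 6.25 RPKM in WT control and 2.69, 2.57 and 3.33 RPKM after TGF-β2. The levels in Nox4 KO were 5.8, 5.48 and 4.45 RPKM before and 3.34, 3.63 and 3.32 RPKM after. The stimulated libraries lay below the control libraries in both, and Pdk1 fell by 0.92 (SE 0.15, adjusted p = 0.00678) in WT and fell by 0.53 (SE 0.12, adjusted p = 0.0256) in Nox4 KO. The difference between these responses, tested as the interaction, was 0.41 (SE 0.20, unadjusted p = 0.0715, adjusted p = 0.854) and was not called. Pdk4, the kinase induced by fasting, had 3.26, 3.7 and 2.76 RPKM in WT control against 1.54, 2.16 and 1.41 RPKM after TGF-β2, and fell by 0.90 (SE 0.21, adjusted p = 0.0247) in WT and fell by 0.59 (SE 0.14, adjusted p = 0.0285) in Nox4 KO. Pdk3, the most abundant of the 4 per length at 57.4% ± 1.84 of their summed RPKM in WT control, fell by 0.38 (SE 0.09, adjusted p = 0.0272) in Nox4 KO, and Pdk2 fell there by 0.39 (SE 0.11, adjusted p = 0.0413), a call lost without the filter on low levels or in the fit on all 12 libraries. In WT their values were -0.27 (SE 0.12, adjusted p = 0.133) and -0.15 (SE 0.18, adjusted p = 0.577). Without WT stimulated replicate 2, Pdk3 fell in WT as well (-0.40, SE 0.06, adjusted p = 0.00748). Pdha1, the catalytic subunit that the kinases act on, had values of -0.15 (SE 0.08) and -0.07 (SE 0.07), and shares 603 bp of exon with Map3k15 on the other strand.

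In the TCA cycle 2 enzymes rose in both genotypes. Idh3a (chromosome 9, 54586334 to 54604661, plus strand), the catalytic subunit of the NAD-dependent isocitrate dehydrogenase, was at 38.0, 39.2 and 36.5 RPKM in WT control and 56.9, 66.8 and 53.7 RPKM after TGF-β2. The Nox4 KO libraries were at 38.7, 40.8 and 43.4 RPKM before and 57.0, 60.5 and 58.1 RPKM after. No control library reached a stimulated one, and Idh3a rose by 0.68 (SE 0.10, adjusted p = 0.00607) in WT and by 0.60 (SE 0.06, adjusted p = 0.00312) in Nox4 KO. The genes of its partner subunits were not called: Idh3b had values of 0.24 (SE 0.13) in WT and 0.02 (SE 0.05) in Nox4 KO, and Idh3g had 0.12 (SE 0.11) and -0.14 (SE 0.06).

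Mdh2 (chromosome 5, 135778480 to 135790398, plus strand), which regenerates oxaloacetate in the mitochondrial matrix, was at 198, 205 and 192 RPKM in WT control and 258, 366 and 242 RPKM after TGF-β2. Nox4 KO libraries had 209, 220.0 and 210.0 RPKM before and 249, 251 and 252 RPKM after. The groups did not overlap, and replicate 2 of the WT stimulated group was the highest of all libraries. Mdh2 rose by 0.57 (SE 0.16, adjusted p = 0.0439) in WT and by 0.32 (SE 0.06, adjusted p = 0.0125) in Nox4 KO, and without WT stimulated replicate 2 by 0.38 (SE 0.08, adjusted p = 0.0205) in WT. Upper-quartile and library-size scaling did not call Mdh2 in WT. Cs, Ogdh, Fh1 and Mdh1, which encode citrate synthase, a subunit of the oxoglutarate dehydrogenase complex, fumarase and the cytosolic malate dehydrogenase, were not called, with values between -0.13 and 0.21 in WT and between -0.12 and 0.17 in Nox4 KO. Cs in Nox4 KO was near the limit (0.17, SE 0.05, adjusted p = 0.0503) and was called with the replicate block.

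Idh1 was listed with the TCA cycle but encodes the cytosolic and peroxisomal NADP-dependent isocitrate dehydrogenase, a source of NADPH outside mitochondria. Its levels (chromosome 1, 65158616 to 65186500, minus strand) were 48.0, 44.8 and 49.4 RPKM in WT control and 21.1, 29.1 and 20.1 RPKM after TGF-β2. The Nox4 KO levels were 44.4, 41.9 and 51.6 RPKM in control and 23.4, 22.6 and 26.4 RPKM after stimulation. The groups were far apart in both genotypes, and Idh1 fell by 0.98 (SE 0.14, adjusted p = 0.00506) in WT and fell by 0.84 (SE 0.09, adjusted p = 0.00355) in Nox4 KO on the log2 scale.

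The pentose phosphate pathway, whose first enzyme also makes NADPH, showed the same direction at that enzyme. G6pdx (chromosome X, 74409483 to 74429194, minus strand), glucose-6-phosphate dehydrogenase, was at 24.9, 25.9 and 33.3 RPKM in WT control and 16.8, 20.4 and 15.7 RPKM after TGF-β2. In Nox4 KO it was at 27.0, 27.0 and 30.4 RPKM before and 17.5, 16.3 and 15.2 RPKM after. The libraries did not overlap, and G6pdx fell by 0.63 (SE 0.14, adjusted p = 0.0199) in WT and fell by 0.70 (SE 0.08, adjusted p = 0.00375) in Nox4 KO. It shares 7.5% of its stretches with G6pd2 and 128 bp of exon with Ikbkg on the other strand. Pgd, the next NADPH-forming enzyme, had values of -0.22 (SE 0.09, adjusted p = 0.135) and -0.23 (SE 0.09, adjusted p = 0.107) and was called in Nox4 KO with the replicate block (adjusted p = 0.0338). Tkt (transketolase) and Taldo1 (transaldolase), of the branch that returns sugars to glycolysis, were not called in either genotype. Taldo1 was at 0.09 (SE 0.15) in WT and -0.24 (SE 0.08, adjusted p = 0.074) in Nox4 KO, where the replicate block, upper-quartile and library-size scaling and DESeq2 called it, and Tkt was at 0.00068 (SE 0.12) and -0.09 (SE 0.07).

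The largest change of a member in either genotype was that of a glycogen gene. Ppp1r3c (chromosome 19, 36731731 to 36736653, minus strand) encodes the targeting subunit PTG, which brings protein phosphatase 1 to glycogen. It was at 3.23, 1.78 and 3.99 RPKM in WT control and at 0.108, 0.0876 and 0.138 RPKM after TGF-β2, where the libraries held 12, 9 and 14 counts. The Nox4 KO libraries were at 5.19, 2.81 and 2.58 RPKM in control and at 0.0171, 0.117 and 0.0609 RPKM after stimulation, with 2, 14 and 7 counts. Every stimulated library was far below every control library. Ppp1r3c fell by 4.69 (SE 0.38, adjusted p = 0.00077) in WT and fell by 5.65 (SE 0.59, adjusted p = 0.00348) in Nox4 KO on the log2 scale, and the few counts after stimulation limit the precision of both. Ppp1r3b, the related subunit best known from liver, was at 2.35 to 4.2 RPKM over all libraries, with values of -0.49 (SE 0.17, adjusted p = 0.0763) in WT and -0.26 (SE 0.11, adjusted p = 0.11) in Nox4 KO. The replicate block (adjusted p = 0.0381), DESeq2 and the fit on all 12 libraries called Ppp1r3b in WT. The share of Ppp1r3c in the RPKM of both subunits was 42.0% ± 7.76 before and 3.89% ± 0.279 after TGF-β2 in WT and 48.3% ± 10.5 and 2.27% ± 1.65 in Nox4 KO (exact permutation test, p = 0.1 in each).

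Both glycogen phosphorylase genes among the members fell in WT as well. Pygl (chromosome 12, 70190811 to 70231488, minus strand), the liver-type enzyme, was at 2.81, 2.5 and 2.31 RPKM in WT control and 1.32, 0.936 and 1.04 RPKM after TGF-β2, and fell by 1.17 (SE 0.20, adjusted p = 0.00809). The fit on all 12 libraries gave the same fold change with an adjusted p of 0.059. In Nox4 KO it was at 2.25, 2.49 and 1.07 RPKM before and 0.816, 1.07 and 0.284 RPKM after. Replicate 3 was the lowest in both Nox4 KO groups, and the value of -1.34 (SE 0.54, adjusted p = 0.109) was called only with the replicate block (-1.39, SE 0.15, adjusted p = 0.00143), DESeq2 or the fit on all 12 libraries. Pygb (chromosome 2, 150786735 to 150831758, plus strand), the brain-type enzyme and the abundant one here, was at 58.5, 65.3 and 56.9 RPKM in WT control and 36.4, 43 and 35.2 RPKM after TGF-β2. The Nox4 KO levels of Pygb were 81.7, 62.4 and 70.7 RPKM before and 45, 37.7 and 56.3 RPKM after. The libraries did not overlap, and Pygb fell by 0.62 (SE 0.11, adjusted p = 0.0102) in WT, while the Nox4 KO value of -0.54 (SE 0.17, adjusted p = 0.0518) passed with the replicate block (-0.55, SE 0.11, adjusted p = 0.0108). Gys1, the glycogen synthase, had values of -0.02 (SE 0.09) and 0.10 (SE 0.14). The branching enzyme Gbe1 had -0.44 (SE 0.24) and -0.42 (SE 0.18), and the replicate block called it in both WT (adjusted p = 0.0374) and Nox4 KO (adjusted p = 0.0117).

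Markers of fat cells had lower summed levels after TGF-β2 as well. Of 6 adipocyte markers 2, Fabp4 and Pparg, were at 1 RPKM or more, and Plin1, Cidec and Lep were under 0.1 RPKM in every library. The summed level of the 6 was 3.99 to 7.86 RPKM in WT control and 1.21 to 2.43 RPKM after TGF-β2, and 1.59 to 6.10 and 0.808 to 1.37 RPKM in Nox4 KO. Fabp4 fell in WT (-2.08, SE 0.43, adjusted p = 0.0163), while Pparg was not called there (adjusted p = 0.127) and neither was called in Nox4 KO (Fabp4 -2.28, adjusted p = 0.0712, Pparg -1.21, adjusted p = 0.0533). Their part in the lower levels of Ppp1r3c, Pygl, Pygb, Idh1, G6pdx and Pdk4 was not tested.

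**Figure D4:**
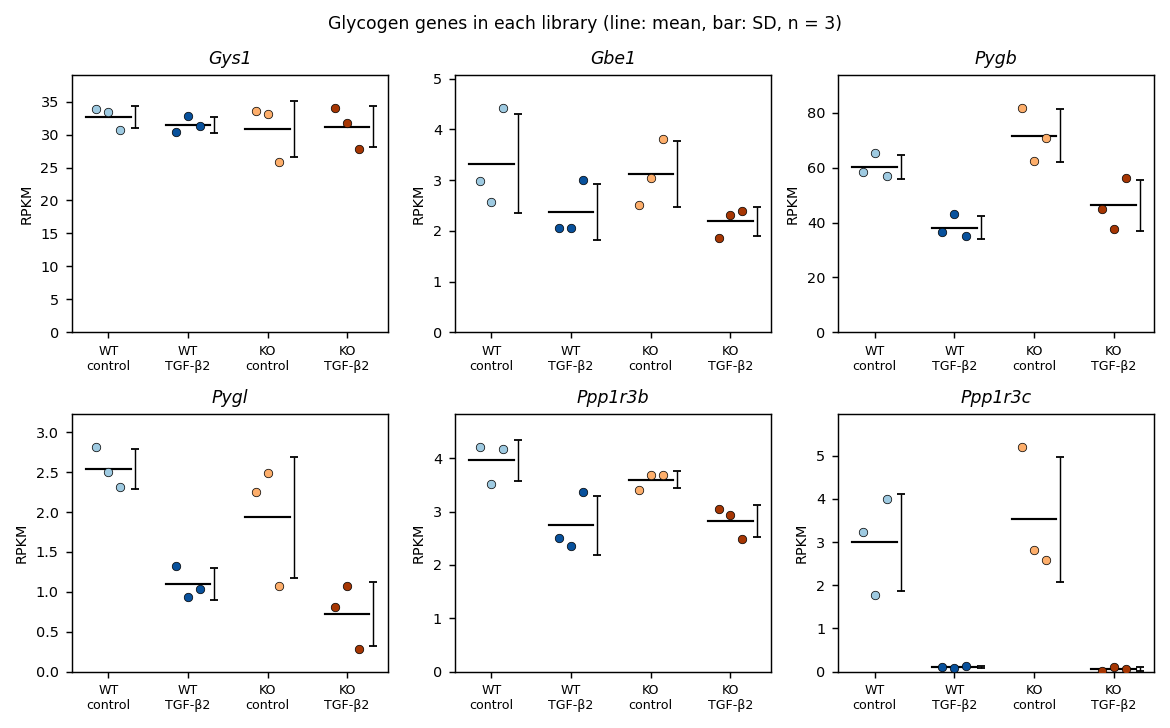
Each panel shows 1 glycogen gene, with the RPKM of each library as points, the mean as a line and the SD as a bar for 3 libraries per group; the vertical axes start at 0 and differ between panels. Ppp1r3c is between 0.0171 and 0.138 RPKM in all stimulated libraries and at 1.78 RPKM or more in all control libraries, whereas Gys1 overlaps between all groups.

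Nox4 KO and WT fibroblasts did not differ in any member at an adjusted p under 0.05. In control, 43 members were tested and 0 were called with edgeR or DESeq2 (edgeR background 0.0% of 10767 genes and 5.54% at an unadjusted p under 0.05, DESeq2 background 9 genes higher and 19 lower). An unadjusted p under 0.05 was found for 2 members, Pgk1, at 0.24 in Nox4 KO over WT (SE 0.08, edgeR adjusted p = 0.828), and Pfkp, at -0.20 (SE 0.07, edgeR adjusted p = 0.828). The log2 differences ran from -0.42 for Pygl (SE 0.32) to 0.24, and 40 of 43 lay within 0.3 of 0. After TGF-β2, 42 members were tested, without Ppp1r3c, and 0 were called with either tool (edgeR background 0.0% of 10439 genes, DESeq2 background 8 genes higher and 8 lower) and 0 had an unadjusted p under 0.05 with edgeR (background 3.23%). These differences ran from -0.59 for Pygl (SE 0.46) to 0.30 for Pygb (SE 0.16), with a median standard error of 0.14, and 40 of 42 lay within 0.3 of 0. Groups did not overlap in 7 of 43 members in control (13.6% of all genes) and in 2 of 42 after TGF-β2 (10.1% of all genes).

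The responses of both genotypes were also compared directly. The interaction of genotype and TGF-β2 was called for 0 of 43 members by edgeR or DESeq2 (edgeR background 0.0% of 10890 genes and 2.68% at an unadjusted p under 0.05, DESeq2 background 0 genes higher and 6 lower), with values from -0.94 for Ppp1r3c (SE 0.74, adjusted p = 0.854) to 0.41 for Pdk1. Pgk1 alone had an unadjusted p under 0.05 (-0.47, SE 0.19, edgeR adjusted p = 0.854), and without WT stimulated replicate 2, where Pgk1 was at 10.0 RPKM beside 5.93 to 8.36 RPKM in the other libraries, its value was -0.31 (SE 0.13). The median standard error of the interaction was 0.18, and with 3 libraries per group values of more than that size, such as those of Pgk1 and Pdk1, were not called.

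Beyond the 45, lists of 91 further genes of these pathways were examined, of which 67 were tested. In WT 5 of them rose and 9 fell, with a median log2 fold change of -0.09, and in Nox4 KO 8 rose and 14 fell, with a median of -0.20. These shares stood beside 22.6% and 30.0% of all genes called. Of those called, Pcx, pyruvate carboxylase, which turns pyruvate into oxaloacetate, alone changed by 2-fold or more. It was at 4.58, 4.86 and 5.77 RPKM in WT control and 1.95, 1.83 and 1.86 RPKM after TGF-β2, and fell by 1.39 (SE 0.12, adjusted p = 0.000826) in WT and fell by 1.17 (SE 0.10, adjusted p = 0.00239) in Nox4 KO. The WT libraries were far apart and similar within each group. Among 16 other glycogen genes tested in WT, Pgm2 (phosphoglucomutase 2, 0.40) and the glycogen-binding Stbd1 (0.80) rose, and the phosphorylase kinase subunits Phkb (-0.82) and Phka1 (-0.55) fell. In Nox4 KO Phkb (-0.60), Phka2 (-0.39), Gyg (glycogenin, -0.42), Pgm1 (-0.41), Gaa (-0.34) and Ppp1r3f (-0.41) fell, and 3 rose, among them Pgm2 (0.40) and Stbd1 (0.63). Of 19 other TCA genes tested, 0 rose and 3 fell in WT, namely Acly (ATP citrate lyase, -0.70), Me1 (cytosolic malic enzyme, -0.62) and Ogdhl (-0.75). In Nox4 KO Dlst rose (0.20) and Acly (-0.44), Ogdhl (-0.69), Slc25a1 (-0.49) and Slc25a11 (-0.35) fell. The tested subunits of succinate dehydrogenase and of succinyl-CoA synthetase were not among the genes called.

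Among genes that respond to low oxygen, a few were called in each direction. Of 21 tested, 2 rose and 4 fell in WT and 1 rose and 4 fell in Nox4 KO, with medians of -0.23 and -0.12, beside 22.6% and 30.0% of all genes called in either direction. Vegfa, the angiogenic factor, was at 77.2, 70.3 and 79.8 RPKM in WT control and 180.0, 137 and 160.0 RPKM after TGF-β2, and rose by 1.11 (SE 0.13, adjusted p = 0.00261). In Nox4 KO it rose by 1.28 (SE 0.36, adjusted p = 0.0418), with replicate 3 at only 67.7 RPKM after stimulation. Adm (adrenomedullin) went from 74.0, 70.2 and 85.9 RPKM to 9.21, 11.3 and 15.3 RPKM in WT and fell by 2.65 (SE 0.19, adjusted p = 0.000597), and fell by 3.00 (SE 0.37, adjusted p = 0.00482) in Nox4 KO. Epas1, which encodes HIF-2α, fell by 1.80 (SE 0.20, adjusted p = 0.00194) and fell by 1.55 (SE 0.31, adjusted p = 0.0156). Hif1a itself fell in WT by 0.69 (SE 0.15, adjusted p = 0.0207), and its Nox4 KO value was -0.28 (SE 0.09, adjusted p = 0.053).

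Of 16 other regulators of glucose metabolism tested, 2 rose and 0 fell in WT and 2 rose and 3 fell in Nox4 KO, beside the same shares of all genes. Myc, a transcription factor known to drive glycolytic genes, was at 19.2, 22.6 and 21.8 RPKM in WT control and 38.7, 44.3 and 42.3 RPKM after TGF-β2, and rose by 1.02 (SE 0.09, adjusted p = 0.00113) in WT and by 0.74 (SE 0.10, adjusted p = 0.00526) in Nox4 KO. Its relative Mycn rose in WT from 0.457, 0.711 and 0.345 RPKM to 1.14, 1.13 and 0.958 RPKM, by 1.13 (SE 0.29, adjusted p = 0.0357), and had 0.42 (SE 0.31, adjusted p = 0.34) in Nox4 KO. In WT, Mycn passed the limit of a mean of 1 RPKM only through the stimulated group, where it was higher. The interaction was not called for either gene (-0.26 with adjusted p = 0.854 for Myc and -0.70 with adjusted p = 0.854 for Mycn).

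Some calls rested on the full set of libraries. With any 1 library left out, 6 of the 13 WT calls held (Ppp1r3c, Pygl, Pygb, Idh1, Idh3a and Pdk1) and 6 of the 13 in Nox4 KO (Ppp1r3c, Ldhb, Eno2, Idh1, Idh3a and G6pdx). In WT 7, 6 and 7 members were called without control replicate 1, 2 and 3 and 6 without stimulated replicate 1. Calls over all genes were fewer in these fits as well, against 1117 higher and 1308 lower with all libraries. They were 521 higher and 804 lower, 608 and 768, and 644 and 793 without control replicate 1, 2 and 3. Without stimulated replicate 1 they were 520 and 712, of 10698 to 10778 genes tested. Hk2, Mdh2, Ldhb, Pfkm and Slc16a3 were lost in each of these 4 cases, with adjusted p-values of up to 0.0828, 0.118, 0.0944, 0.136 and 0.143, and Pdk4 (up to 0.084) and G6pdx (up to 0.0658) in 3 of them. Without stimulated replicate 3 the WT count was 13, with Ldhb, Pdk4 and Pfkm lost and Eno2, Pfkfb4 and Ppp1r3b gained. This fit called 1040 genes higher and 1216 lower over all genes. In Nox4 KO 6 and 9 members were called without control replicate 1 and 2 and 8 and 6 without stimulated replicate 1 and 2, where Pdk1, Pdk2, Pdk3 and Pdk4 were lost each time, with adjusted p-values of up to 0.084, 0.137, 0.104 and 0.089. Over all genes in Nox4 KO the calls went from 1637 higher and 1606 lower to 785 and 831, and 864 and 919, without these control libraries. Without these stimulated libraries they were 893 and 886, and 572 and 562, of 10786 to 10838 genes tested. Hk2 (up to 0.0674) and Mdh2 (up to 0.0598) were lost there without control replicate 1 or stimulated replicate 2, and Pfkm (up to 0.0945) without these, control replicate 3 or stimulated replicate 1. Without control replicate 3 of Nox4 KO the count was 12, with Pdk2, Pdk4 and Pfkm lost and Ldha (adjusted p = 0.0486) and Pfkl (adjusted p = 0.0234) gained. Without stimulated replicate 3 of Nox4 KO the count was 14, with Pdk1 lost and Pfkfb4 and Pygb gained. Over all genes these fits called 1375 higher and 1335 lower, and 1713 higher and 1798 lower.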

How the data were processed

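Libraries were made with the TruSeq kit and sequenced as single-end reads of 50 bases. The authors aligned them to GRCm38 with STAR (version 2.4 in the submitters' processing notes, which also name CASAVA 1.8.2), discarded reads with several locations, and counted reads over merged exons with featureCounts (version 1.4.6). The deposited file holds these raw counts per gene, with 0 unassigned columns, and no strand setting is stated. Lengths for RPKM came from the GENCODE M21 annotation of that build, in which all 21556 genes were found.

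Genes with a mean of at least 1 RPKM in a group compared were fitted with edgeR's quasi-likelihood test (edgeR 4.0.16, limma 3.58.1, R 4.3.3, TMM scaling) on the libraries of that comparison, and on all 12 for the interaction. P-values were adjusted by Benjamini-Hochberg over all genes tested, and an adjusted p under 0.05 was a call. Fold changes are log2, with standard errors. DESeq2 1.42.0, other scalings, filters, a replicate block and leaving out each library were alternatives. On simulated counts for the WT comparison (10667 genes), 76% of 100 genes changed by a log2 fold of 1 and 99% of 100 changed by 2 were called, and 5.91% of the calls were unchanged genes.

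The members and gene lists were chosen with earlier results of these data known. Values in every library were given for members called with a fold of at least 2, for the 8 further members with the smallest adjusted p after TGF-β2, and for Gapdh. At most 4 genes of each other list called at that fold were also named. For these the levels of the WT libraries were given, except for Epas1, which has fold changes only. Pdk2, Pdk3, Pdk4, Slc16a3, Pgk1, Pfkp, Pfkl, Pfkfb4, Slc2a1, Hif1a and the other genes named with single values were chosen after their values were seen. Same-numbered libraries of Nox4 KO with and without TGF-β2 correlated in their deviations from the group means (r = 0.771, 0.685 and 0.748), so the paired fit with a replicate block is given beside results it changes. The WT pairs did not all pass r = 0.1 (0.073, 0.437 and 0.532), nor did the pairs between genotypes. The share of 50-base stretches found elsewhere was computed from the reference transcripts. One gene of the other lists is not reported here.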

Additional observations from a re-analysis of the deposited data

How the results depend on the processing

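With 3 libraries per group, 1 library could decide a call: the members called with 1 library left out numbered 6 to 13 in WT and 6 to 14 in Nox4 KO. Over all genes the same fits called from 520 higher and 712 lower to 1643 higher and 1756 lower in WT. In Nox4 KO they called from 572 higher and 562 lower to 1713 higher and 1798 lower. Asking for a 2-fold change as well left 2 members in WT and 3 in Nox4 KO. The paired fit with a replicate block called 25 members in Nox4 KO (54.0% of all genes in that fit) and 18 in WT (28.7% of all genes), where every library correlated best with its own number but the pairing is only a hint from the data, and it called 0 members between genotypes or for the interaction. Other scalings, filters, tools and the fit on all 12 libraries kept the member counts within 1.5 times, at 12 to 17 in WT and 12 to 18 in Nox4 KO, and at 0 for every comparison of genotypes. Of the recomputed values of single genes and isoenzyme shares, 1080 kept direction and side of the threshold or, for shares, stayed within the pooled SD. A call was lost by 39 and gained by 14, and 24 changed sign, none of them a call. With lengths from all transcripts 4 share changes moved further than that SD. In WT, Ppp1r3c went from -38.1 to -44.3, Ldhb from -1.18 to -1.48 and Slc2a3 from -0.377 to -0.231 percentage points. In Nox4 KO, Eno2 went from -2.45 to -3.19. With 1 library left out in turn, Gapdh after TGF-β2 in WT ran from -0.07 to 0.31. In that setting Nox4 KO against WT in control ran from -0.19 to 0.44 for Ppp1r3c, from -0.09 to 0.09 for G6pdx and from -0.16 to 0.06 for Gapdh. After TGF-β2 the same difference ran from -0.10 to 0.23 for Eno2, -0.26 to 0.16 for Ldhb, -0.05 to 0.07 for Idh3a, -0.02 to 0.21 for Idh1, -0.15 to 0.0026 for G6pdx, -0.22 to 0.02 for Hk2 and -0.31 to 0.08 for Gapdh. Scaling by library size turned Gapdh after TGF-β2 in Nox4 KO to -0.0047, G6pdx between genotypes in control to 0.0060, and Eno2 and Idh3a between genotypes after TGF-β2 to -0.0028 and -0.01. Upper-quartile scaling turned that G6pdx value to 0.0079 and that of Idh3a to -0.0094, and Idh3a was also at -0.0048 without a filter, -0.0013 with edgeR's own filter and -0.0021 in the fit on all 12 libraries. The cause of these changes was not tested.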
